A study of Mus musculus with 2 samples.

Results

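The genes described here encode the chains of the interleukin-4 (IL-4) receptors and the Janus kinases bound to cytokine receptors of this class. They were the 7 genes Il4ra, Il2rg, Il13ra1, Jak1, Jak2, Jak3 and Tyk2, of 11054 genes named in the transcript lists. Their transcripts were found by gene name, or, for transcripts on the strand of a gene, by overlap with the gene whatever their name. Of the 7 genes, 6 gave their name to a transcript in at least 1 library. Their names stood on 43 of 43122 transcripts in the control library and on 63 of 51365 in the IL-4 library.

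The assay was GRO-seq (global run-on sequencing), in which engaged RNA polymerases extend their transcripts in isolated nuclei and only the labelled RNA is sequenced. The cells were bone marrow-derived macrophages (BMDMs) of wild-type C57BL/6 mice aged 8 to 12 weeks, grown for 6 days with L929 supernatant as the source of macrophage growth factor. The sample labels of both conditions name this factor as MCSF (macrophage colony-stimulating factor). The control cells received no IL-4, and the other cells received 20 ng/ml IL-4 for 1 hr. Run-on reactions were pooled before sequencing, which left 1 library per condition (n = 1), so no value below has a replicate error and no difference was tested.

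IL-4 binds the receptor chain IL-4Rα, the product of Il4ra, which then pairs with a second chain. On blood cells the partner is usually the common gamma chain, encoded by Il2rg, and on many other cells, macrophages included, it can be IL-13Rα1, encoded by Il13ra1, which also lets IL-13 signal. IL-4Rα carries JAK1, the gamma chain carries JAK3, and IL-13Rα1 carries TYK2 or JAK2, and the kinases phosphorylate the receptor tail so that the transcription factor STAT6 can dock and be activated.

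A called transcript is a stretch of the genome, on 1 strand, over which run-on reads formed a continuous block. Each has a deposited score, given to 1 decimal, whose scale the sources used here do not state. Each gene was given the highest score found on any transcript named for it, here called its value. Ratios were IL-4 over control on the log2 scale, centred on the median of the 8879 genes with a value in both libraries, which was −0.38 before centring. A gene was counted as higher or lower when the centred ratio reached 2-fold. Scores printed to 1 decimal can be off by up to 0.05, and each ratio therefore has a range allowed by rounding, which is not a replicate error.

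The promoters of 5 of the genes are shown first, because a called transcript of the IL-4 library reached into the 250 bases before the start in each of them, and because the results below refer to these starts. The sequences are from RefSeq (GRCm38.p6), run 5′ to 3′ along the strand of the gene and end at the base before its start, and capitals mark the bases covered by a called transcript of either strand in the IL-4 library.
Il4ra promoter, chr7:125552021-125552270, plus strand: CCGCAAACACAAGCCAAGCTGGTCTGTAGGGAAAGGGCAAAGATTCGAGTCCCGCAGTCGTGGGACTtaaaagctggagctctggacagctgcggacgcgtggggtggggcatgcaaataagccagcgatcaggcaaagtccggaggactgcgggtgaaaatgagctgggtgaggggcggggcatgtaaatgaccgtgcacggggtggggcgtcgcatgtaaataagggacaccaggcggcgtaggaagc
Jak1 promoter, chr4:101265224-101265473, minus strand: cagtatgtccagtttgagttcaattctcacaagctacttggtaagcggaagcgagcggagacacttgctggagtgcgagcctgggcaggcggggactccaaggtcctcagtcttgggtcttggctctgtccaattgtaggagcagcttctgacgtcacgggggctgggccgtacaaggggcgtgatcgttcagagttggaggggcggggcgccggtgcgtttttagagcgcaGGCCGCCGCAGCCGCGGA
Jak2 promoter, chr19:29251553-29251802, plus strand: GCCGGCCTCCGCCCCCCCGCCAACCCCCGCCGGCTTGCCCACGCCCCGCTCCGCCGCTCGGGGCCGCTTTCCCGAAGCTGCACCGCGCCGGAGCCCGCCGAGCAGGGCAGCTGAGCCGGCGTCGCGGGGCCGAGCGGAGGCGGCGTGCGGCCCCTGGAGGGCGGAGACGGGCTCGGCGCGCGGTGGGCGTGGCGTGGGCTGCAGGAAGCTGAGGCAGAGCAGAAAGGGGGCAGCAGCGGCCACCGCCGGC
Jak3 promoter, chr8:71676133-71676382, plus strand: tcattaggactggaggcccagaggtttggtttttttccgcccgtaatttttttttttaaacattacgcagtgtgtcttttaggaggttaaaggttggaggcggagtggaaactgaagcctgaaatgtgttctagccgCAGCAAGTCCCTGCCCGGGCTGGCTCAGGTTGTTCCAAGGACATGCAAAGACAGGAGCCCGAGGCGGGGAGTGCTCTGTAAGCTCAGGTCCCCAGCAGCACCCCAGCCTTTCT
Tyk2 promoter, chr9:21131276-21131525, minus strand: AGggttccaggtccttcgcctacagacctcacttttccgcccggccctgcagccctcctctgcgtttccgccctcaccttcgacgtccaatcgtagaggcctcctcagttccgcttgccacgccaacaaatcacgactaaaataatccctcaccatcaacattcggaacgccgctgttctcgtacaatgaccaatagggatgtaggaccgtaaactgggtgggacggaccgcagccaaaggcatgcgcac

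The capitals do not mean the same in all promoters. In Il4ra, Jak3 and Tyk2 the transcript in the window ran on the strand opposite to the gene, and it covered 67, 113 and 2 bases, respectively. In Jak1 the 18 capital bases belonged to the gene's own first transcript. In Jak2 a transcript on the strand of the gene covered all 250 bases. No called transcript of either library reached the promoters of Il2rg and Il13ra1.

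The promoters of the 7 genes were searched on both strands, over 250 bases before and 50 after the start, for TTC and GAA set 4 bases apart, the spacing that STAT6 prefers, and for TTC and GAA set 3 bases apart, the spacing that other STAT factors prefer. Neither motif was present in any of the 7 windows. Among 32851 RefSeq promoters of the same length, 6.95% held the former and 8.30% the latter, so that most promoters hold neither. The G and C content of the windows was 62% in Il4ra, 64.7% in Jak1, 81% in Jak2, 54.3% in Jak3, 58% in Tyk2, 50.3% in Il2rg and 71% in Il13ra1. Only Il2rg lay below the median of all these promoters, 52.7%.

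Il4ra, the gene of the ligand-binding chain, was higher after IL-4. It lies on the plus strand at chr7:125552120-125579474 (mm10, 27355 bp, ENSMUSG00000030748.9). Its value rose from 0.9 in the control library to 2.2 in the IL-4 library, and the centred log2 ratio was 1.67 (1.56 to 1.78 by rounding). Of all genes with a value in both libraries, 2.08% had a ratio as high or higher. Across the whole set 8.06% of genes were at least 2-fold higher, and Il4ra was 1 of 5 members with a ratio.

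Both values of Il4ra came from the same place, intron 5 of 10, where the annotation names a (TTTG)n simple repeat. There, the control transcript measured 46 bp and the IL-4 transcript 468 bp. With all simple repeats left out, the highest score was 0.6 against 1.2, and both then came from the first transcript of the gene. The higher value after IL-4 was thus present with and without the repeat.

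The larger difference was in how much of Il4ra was covered. In the control library 13 separate transcripts on the strand of the gene covered 3334 bp, or 12.2% of the gene. After IL-4, 28 transcripts covered 21386 bp, or 78.2%. The covered length was 6.41 times that of control, while the median ratio over 8185 genes covered in both libraries was 1.37. A covered length at least 2-fold higher after IL-4 was common, at 29.2% of these genes, whereas 7.06% had one at least 2-fold lower, and 3.07% reached the ratio of Il4ra.

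**Figure D1:**
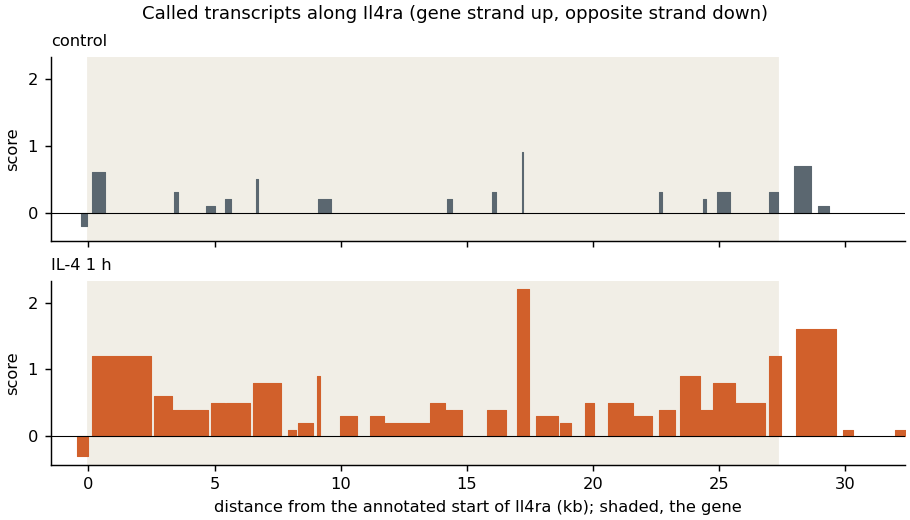
Called transcripts along Il4ra in the control library (top) and the IL-4 library (bottom), with distance from the annotated start in kb on the horizontal axis and the deposited score on the vertical axis. Bars above the line are on the strand of the gene, bars below it on the opposite strand, and the shaded area is the gene. The 13 scattered control transcripts cover 12.2% of the gene and the 28 IL-4 transcripts cover 78.2%.

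The gain ran along the whole gene. With the gene cut into 3 equal segments, control transcripts covered 14.9% of the 5′ segment, 9.79% of the central one and 11.9% of the 3′ one. After IL-4 the same segments were covered to 89.3%, 66.1% and 79.2%. Single calls were also longer: the longest control transcript measured 547 bp and the longest IL-4 transcript 2341 bp, with median lengths of 184 and 634 bp.

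Among 5925 genes of at least 10 kb that were covered in both libraries, Il4ra ranked 1st for the gain of covered share and 2nd for the covered share after IL-4, while it ranked 323rd for the covered share in control. This ranking was chosen after the values had been seen. The median of these genes was 1.71% covered in control and 2.42% after IL-4. By the ratio of covered lengths, which favours genes with little cover in control, Il4ra ranked 202nd.

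The first transcript on the strand of Il4ra began 4 bases after the RefSeq start in control and 7 bases after it in the IL-4 library, so both libraries placed the start of transcription at the end of the promoter printed above. The control call was 500 bp long with a score of 0.6, and the IL-4 call was 2341 bp long with a score of 1.2. A second transcript ran away from the gene on the opposite strand, with its 5′ end 198 bases upstream of the start in control and 184 bases upstream after IL-4. Its score was 0.2 and 0.3, a difference of 1 rounding step.

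Single transcripts of Il4ra could be followed between the libraries. Each of the 13 control transcripts overlapped at least 1 IL-4 transcript, which gave 15 overlapping pairs, and the score was higher after IL-4 in 15 of 15 pairs (median uncentred log2 ratio 1.29). Among all 24705 overlapping pairs on the strand of a gene, 22.7% had a higher printed score after IL-4 and 54.9% a lower one. In the other direction, 15 of the 28 IL-4 transcripts, or 53.6% (95% Wilson interval 35.8 to 70.5), had no counterpart in control, and the share over all genes, 47.5%, lay within this interval. Score times length, summed over the transcripts of Il4ra, came to 1006 without IL-4 and 12626 with it, a ratio of 12.5.

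Calls went on past the annotated 3′ end of Il4ra. In the 5 kb downstream, on the same strand, 2 control transcripts covered 1099 bp with a highest score of 0.7, and 4 IL-4 transcripts covered 2459 bp with a highest score of 1.6. These and the last transcripts within Il4ra carried the name of Il21r, the next gene downstream, because names went to the nearest promoter. The value of 1.6 for Il21r after IL-4 came from this downstream stretch. The antisense gene Gm44876 overlaps Il4ra in the annotation, on the other strand.

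The gene of the common gamma chain, Il2rg, had a single called transcript. The gene is on the minus strand at chrX:101264378-101268255 (3878 bp, ENSMUSG00000031304.18). The control transcript was 175 bp long, lay in intron 3 of 7 and had a score of 0.3, and the IL-4 library had none. A gene model named Gm20489 overlaps Il2rg, so the transcript cannot be given to Il2rg alone. With 1 short transcript in 1 library there is no ratio.

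Il13ra1, the gene of the chain that can pair with IL-4Rα in place of the gamma chain, had no called transcript in either library. The gene is on the plus strand at chrX:36112110-36171259 (59150 bp, ENSMUSG00000017057.9), and neither its name nor any transcript on its strand within these bounds was listed. A list of called transcripts does not show reads below the caller's limit, so the gene can be said only to be without a call. The number of cells and the RNA made per cell cannot be told apart in a bulk library.

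**Figure D2:**
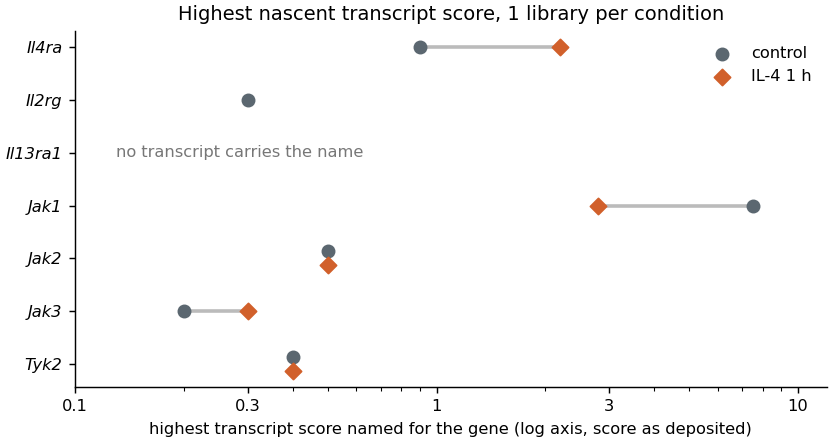
Highest score among the transcripts named for each gene, on a log axis in the unit of the deposited score, with a circle for the control library and a diamond for the IL-4 library (n = 1 each). For Jak2 and Tyk2 both symbols stand at the same score and are set apart vertically only for display. Il4ra moves from 0.9 to 2.2 and Jak1 from 7.5 to 2.8, while the other genes differ by 0.1 or less or lack a value.

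Jak1, the gene of the kinase bound to IL-4Rα, was lower after IL-4 by its highest score. It lies on the minus strand at chr4:101152367-101265282 (112916 bp, ENSMUSG00000028530.14). The value of 7.5 in the control library stood against 2.8 in the IL-4 library, for a centred log2 ratio of −1.04 (−1.08 to −1.01 by rounding). Over all genes, 8.62% were at least 2-fold lower and 7.93% had a ratio as low as that of Jak1.

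The value of Jak1 rested on 1 short segment. In both libraries the highest score came from a (CAAAAA)n simple repeat in intron 1 of 24, in a transcript of 108 bp (control) or 84 bp (IL-4). This segment held 50% of the summed score of the transcripts named Jak1 in control and 43.75% after IL-4. Without simple repeats the highest score was 0.8 and 0.5, the centred ratio was −0.36, and Jak1 was no longer past 2-fold. A simple repeat gave the control value in 13.7% of all genes and in 26.5% of genes at least 2-fold lower, and what part such segments have in the lower values was not tested.

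The calls of Jak1 that could be matched between the libraries were mostly lower after IL-4. Of 9 overlapping pairs of transcripts within the gene, the repeat included, 7 had a lower score after IL-4, 1 had an equal score and 1 a higher one, and over all genes 54.9% of pairs were lower. The pair with the higher score was the one at the start of the gene, where the score was 0.3 in control and 0.5 after IL-4. These first transcripts began 19 bases upstream of the RefSeq start in control and 18 bases upstream after IL-4, the latter at the first of the capital letters of the Jak1 promoter above and the former 1 base before it. Both began inside the GENCODE bounds given for Jak1, 40 (control) and 41 (IL-4) bases from the GENCODE start. The call at the start of the gene thus differed in the opposite direction to most of the matched calls in its body, and calls of either kind covered little of the gene.

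The covered length of Jak1 hardly differed. There were 18 transcripts on the strand of the gene in control and 12 after IL-4, which covered 3780 bp (3.35%) and 4391 bp (3.89%). The ratio of covered lengths, 1.16, was below the median gene, 1.37. No counterpart was found for 9 of 18 control transcripts (interval 29.03 to 70.97%) and 3 of 12 IL-4 transcripts (8.89 to 53.2%), and these intervals hold the shares over all genes, 36.7% and 47.5%. A further group of transcripts named Jak1 lay upstream of the gene at chr4:101291983-101293552, between genes, with transcripts on both strands and highest scores of 0.5 in control and 0.4 after IL-4.

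**Figure D3:**
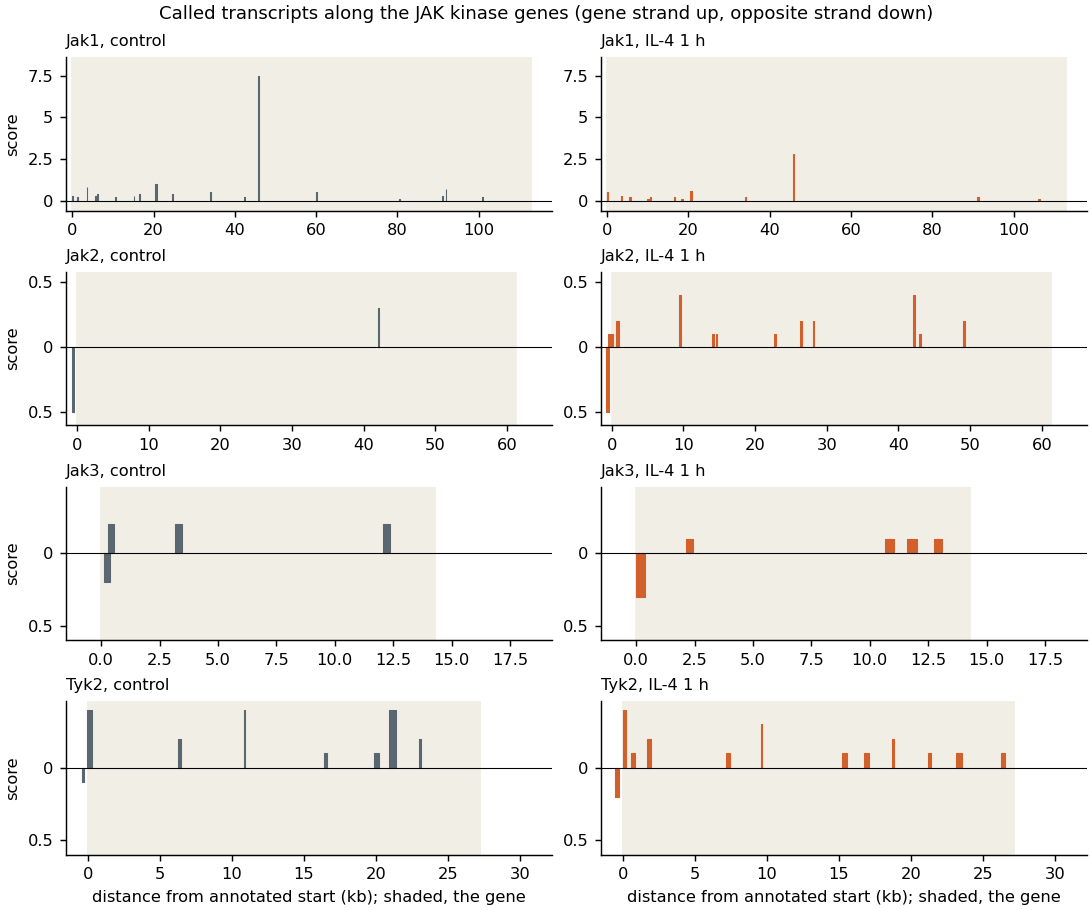
Called transcripts along Jak1, Jak2, Jak3 and Tyk2 in the control library (left) and the IL-4 library (right), with distance from the annotated start in kb on the horizontal axis and the deposited score on the vertical axis. The shaded area is the gene, bars above the line are on its strand and bars below the line on the opposite strand. The scale of scores differs between genes, and the tall bar of Jak1 is the simple repeat of intron 1, at 7.5 in control and 2.8 after IL-4.

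Jak2, the gene of a kinase that can be bound to IL-13Rα1, had the same value in both libraries but more transcripts after IL-4. Its place is the plus strand at chr19:29251828-29313080 (61253 bp, ENSMUSG00000024789.13). The value was 0.5 in both, a centred log2 ratio of 0.38 (0.09 to 0.67 by rounding). Both values came from the same promoter transcript on the strand opposite to the gene, with 5′ ends 327 bases upstream of the RefSeq start in control and 308 bases upstream after IL-4.

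On the strand of Jak2 itself, the control library had 1 transcript of 180 bp with a score of 0.3, which carried the name of another gene, Insl6. The IL-4 library had 11 transcripts that covered 2822 bp with a highest score of 0.4. The covered share was 0.294% and 4.61%, a ratio of 15.7, which 0.574% of genes reached or passed. Of the 11 IL-4 transcripts, 10 had no counterpart in control (90.9%, 95% Wilson interval 62.3 to 98.4), beside 47.5% over all genes.

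One of these new calls was at the promoter. It was 708 bp long with a score of 0.1, began 457 bases upstream of the RefSeq start and ran through the whole Jak2 sequence printed above. The others were spread from intron 2 to exon 20, with scores of 0.1 to 0.4. The control call overlapped 1 IL-4 call, with scores of 0.3 and 0.4. The ratio of covered lengths thus rested on a single control transcript, and the gain in covered share ranked 1024th of the 5925 long genes.

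Jak3, the gene of the kinase bound to the gamma chain, had few calls, with scores at the low end of the scale. It lies on the plus strand at chr8:71676296-71690575 (14280 bp, ENSMUSG00000031805.17). Values of 0.2 without and 0.3 with IL-4 differ by 1 rounding step, with a centred log2 ratio of 0.96 (0.38 to 1.60 by rounding). A further 294 genes had the same pair of values. The range allowed by rounding spans the 2-fold threshold, so Jak3 cannot be placed on either side of it.

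The higher value of Jak3 was on the strand opposite to the gene, at its start. On its own strand the highest score was 0.2 in control and 0.1 after IL-4. The 3 control transcripts covered 6.30% of the gene and the 4 IL-4 transcripts covered 10.3%. None of the 7 transcripts overlapped a transcript of the other library. The Wilson interval was 43.9 to 100% for the 3 control transcripts and 51.0 to 100% for the 4 IL-4 transcripts. Both lay just above the shares over all genes, 36.7% (control) and 47.5% (IL-4). So few calls, which are not independent within a gene, cannot set Jak3 apart from other genes. The 5′ segment of the gene was covered to 12.8% without and 6.60% with IL-4, the 3′ segment to 6.11% and 24.2%. The gene Insl3 overlaps the 3′ end of Jak3 and gave its name to the transcripts there, so those calls cannot be given to Jak3 alone.

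Tyk2, the gene of the kinase that IL-13Rα1 and several interferon and interleukin receptors carry, was the same in both libraries by its highest score. Its place is the minus strand at chr9:21104068-21131243 (27176 bp, ENSMUSG00000032175.11). Its value was 0.4 in both, a centred log2 ratio of 0.38 (0.02 to 0.74 by rounding). The control value stood on 2 transcripts named for the gene, and the IL-4 value came from the transcript next to the start.

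There were 7 transcripts on the strand of Tyk2 in control and 11 after IL-4. They covered 1723 bp (6.34%) and 2925 bp (10.8%), a ratio of 1.70. Score times length summed to 470.4 without and 413.9 with IL-4, so more of the gene was covered at lower scores. Of 3 overlapping pairs, none was higher after IL-4, 2 were lower and 1 was equal. No counterpart was found for 4 of 7 control transcripts (25.05 to 84.18%) and 8 of 11 IL-4 transcripts (43.4 to 90.3%), intervals that also hold the shares over all genes. The antisense gene 1700084C06Rik overlaps Tyk2 on the other strand, and 1 transcript named Tyk2 in each library lay in the 3′ UTR of the neighbouring gene, upstream of Tyk2.

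**Figure D4:**
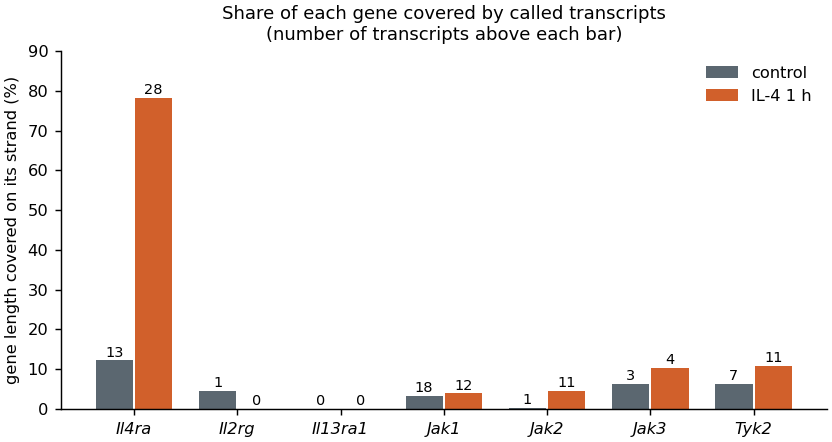
Share of the length of each gene, in percent, that was covered by called transcripts on its own strand in the control library (grey) and the IL-4 library (orange), n = 1 each, with the number of transcripts above each bar. Il4ra rises from 12.2% to 78.2%, and no other gene passes 10.8% in either library.

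For the 7 genes together, called transcripts on the strand of the gene covered 10091 of 306008 bp (3.30%) without IL-4 and 32988 bp (10.8%) with it, a ratio of 3.27. Without Il4ra the sums were 6757 and 11602 bp, a ratio of 1.72, which is nearer to the median gene, 1.37. Il4ra therefore gave most of the gain in the sum. In covered bases per kb, which allows genes of different length to be compared, the order in control was Il4ra (122), Tyk2 (63.4), Jak3 (63.0), Il2rg (45.1), Jak1 (33.5), Jak2 (2.94) and Il13ra1 (0). The order after IL-4 was Il4ra (782), Tyk2 (108), Jak3 (103), Jak2 (46.1), Jak1 (38.9), and Il2rg and Il13ra1 (both 0). Neighbours such as Tyk2 and Jak3 cannot be ranked, since no replicate gives the error of these values.

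Of the transcripts on the strand of these genes, 17 of 43 in control had no counterpart in the IL-4 library (39.5%, 95% Wilson interval 26.4 to 54.4). In the IL-4 library 40 of 66 had no counterpart in control (60.6%, 48.5 to 71.5). These sets were found by overlap, and 7 of the control and 12 of the IL-4 transcripts carried the name of another gene. Over all genes the shares were 36.7% (control) and 47.5% (IL-4), the former within the interval of these genes and the latter just below it. Of the 40 IL-4 transcripts without a counterpart, 15 were of Il4ra and 10 of Jak2. The intervals cover counting error only, and transcripts of a gene are not independent.

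**Figure D5:**
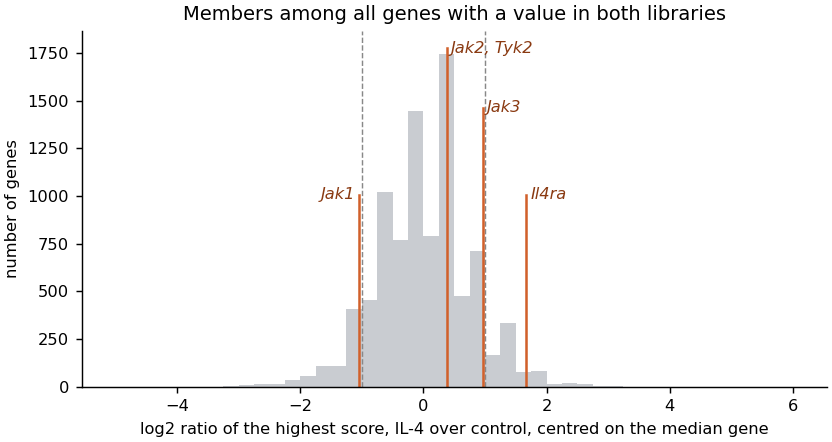
Distribution of the centred log2 ratio of the highest score, IL-4 over control, over the 8879 genes with a value in both libraries, with the number of genes on the vertical axis. Orange lines mark 5 of the 7 genes and dashed lines mark 2-fold. Il4ra (1.67) and Jak1 (−1.04) are past 2-fold, whereas Jak2 and Tyk2 (both 0.38) are not. Jak3 (0.96) is drawn below 2-fold, but its rounding range of 0.38 to 1.60 spans that limit.

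The other genes of the pathway were taken from lists of 72 genes, of which 54 had a value in both libraries. Of these, 6 were at least 2-fold higher and 3 at least 2-fold lower, with a median centred log2 ratio of 0.26. Over all genes 8.06% were higher and 8.62% lower, so the pooled counts of the lists were near the background. The lists were not alike, however, and 4 of the 6 higher genes were IL-4 target genes. The ligands and the decoy receptor gave no ratio. Il4 carried a value of 0.4 in control only, from transcripts that did not lie on its strand within the gene, and Il13 and Il13ra2, the decoy receptor that binds IL-13, had no named transcript in either library.

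The STAT factors, which the kinases activate, had 6 of 7 genes with a ratio, 0 of them higher and 1 lower. For this and the next lists, the shares over all genes were 8.06% higher and 8.62% lower. Stat6, the factor that IL-4 signals through, had values of 1.3 without and 0.9 with IL-4 (centred log2 ratio −0.15). Stat5b, which serves many cytokine receptors, was 2.4 and 0.9, a ratio of −1.04 whose rounding range of −1.15 to −0.93 spans the threshold. None of 14 other chains with a ratio, from receptors that use these kinases, was past 2-fold, with a median of −0.04. Of these, Il12rb1 had no transcript on its strand within the gene in either library. Among 10 of 11 receptor adaptors with a ratio, Gab1, a docking protein, was lower, at 0.9 and 0.3 (−1.21), with a rounding range of −1.55 to −0.90 that also spans the threshold.

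The negative regulators held the highest ratio of the lists. Socs1, whose product inhibits the JAK kinases, went from 0.3 to 2.5, for a centred log2 ratio of 3.44 (3.19 to 3.73 by rounding). Its covered length was 87.4 bases per kb in control and 992 after IL-4. Socs3, a related inhibitor, was 0.3 and 0.5 (1.12, rounding range 0.74 to 1.52), and Socs7 was 0.3 and 0.1 (−1.21, rounding range −2.43 to −0.36). Both ranges span 2-fold, so of these only Socs1 was past it whatever the rounding. Cish and Socs2, inhibitors of STAT5 signalling, had no value in control and values of 0.6 and 0.3 after IL-4, with 6 transcripts on the strand of Cish after IL-4 that covered 693 bases per kb. In all, 16 of 18 regulators had a ratio, with a median of 0.38. Of the 16, 2 were higher and 1 lower, beside 8.06% and 8.62% over all genes.

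Genes known as targets of IL-4 in macrophages had 8 of 14 members with a ratio, 4 higher and 0 lower, with a median of 1.09. The shares over all genes were 8.06% and 8.62%, and this list was chosen with earlier results of these data known. Mrc1, the mannose receptor, was 2.7 and 13.1 (2.66), Tfec, a transcription factor, 0.3 and 1.0 (2.12), and Mgl2, a lectin, 0.8 and 1.6 (1.38). Ccl17, a chemokine, was 0.4 and 1.0 (1.70), but no transcript lay on its strand within the gene. Some genes known to be induced by IL-4 were thus among those higher after it, and the ratio of Il4ra (1.67) lay within the range of the 4.

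Among the 7 genes, Jak1 had the highest control value, and the genes nearest to it by both values were Tnrc6a (7.5 and 2.7), Sirpa (8 and 3.3) and Unc93b1 (6.2 and 2.4), at distances of 0.05, 0.25 and 0.35 on the log2 scale over 2 libraries. In Tnrc6a the control value, and in Unc93b1 the IL-4 value, came from a simple repeat.

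Several facts of the whole lists bear on these values. Transcripts were called in each library on its own, and their median length was 227 bp without and 312 bp with IL-4, with 8 and 57 transcripts of at least 2000 bp. The median score was 0.3 in the control list and 0.2 in the IL-4 list. The part of this difference in length in the cover of Il4ra and Jak2 was not tested. Of 9 macrophage markers, 8 had a value in both libraries, with Cd68 highest at 5.8 and 7.3, and summed values of 19.9 and 18.3. The remaining marker, Spi1, gave its name to no transcript, but 33 (control) and 27 (IL-4) transcripts lay on its strand within the gene. Of 7 T and NK cell markers, 2 were named in control and 1 after IL-4, with Cd8a highest at 0.6 and 0.8. Of 5 B cell markers 1 was named in each library, Cd79a at 0.4 in both. No transcript of either lymphocyte list lay on the strand of its gene within the gene. Of 6 neutrophil and mast cell markers 2 were named in each library, the highest being Mpo at 0.6 in control and S100a8 at 0.3 after IL-4. Unlike the lymphocyte markers, these 2 in each library had transcripts on their strand within the gene. Of 6 fibroblast markers none was named.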

How the data were processed

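Nascent RNA was measured in 1 control and 1 IL-4 library of BMDMs. Per the paper's methods and the submitters' processing notes, reads were aligned with BWA 0.7.10 to mm10, handled with SAMtools 0.1.19, cleared of ENCODE artifact regions and called into transcripts per library with HOMER 4.2 in its GRO-seq mode. The authors deposited 1 score per transcript. Its scale, read counts and depth are not given in the sources used here, so no interval needing depth was computed, and shares of transcripts have 95% Wilson intervals.

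Gene positions and strands came from GENCODE M21 (the same build), in which 93.9% of the 11054 names were found, and promoters from RefSeq GRCm38.p6, in which all 7 genes matched. A transcript was on a gene's own strand when it overlapped the gene by at least 1 bp on that strand, and a counterpart was a transcript of the other library that overlapped by at least 1 bp on the same strand. Python 3.11.15, pandas 2.3.3, numpy 2.4.6, scipy 1.17.1 and matplotlib 3.10.9 were used, and the scripts were tested on simulated data.

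The members and the gene lists were chosen with earlier results of these data known. Named were all 7 members, listed genes past 2-fold, Stat6, Socs1, Cish and Il13ra2, the 3 genes nearest to the member with the highest control value, and the highest gene of each marker list. Socs2, Il4, Il13 and Il21r were named after their values were seen. Alternatives were other gene values, scalings, limits on score, length, overlap and fold, and leaving out simple repeats.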

Additional observations from a re-analysis of the deposited data

How the results depend on the processing

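Of 5 members with a ratio, 1 was at least 2-fold higher (Il4ra) and 1 at least 2-fold lower (Jak1). With scores summed per gene, or summed as score times length, 2 were higher (Il4ra and Jak2) and 0 lower. The only control transcript named Jak2 was on the opposite strand, whereas 9 were named Jak2 after IL-4, 1 of them on that strand. With the transcript nearest the start, 0 were higher and 2 lower (Il4ra at −1 and Jak2 at −2.32), and the ratio of Jak1 was 0.74. By construction, distance is then taken from the midpoint, so the long first transcript of Il4ra after IL-4 gave way to the opposite-strand one. At 1.5-fold, 2 were higher (Il4ra and Jak3). Without simple repeats, 0 were lower, by gene name and, chosen after seeing the data, by own-strand overlap. The shares over all genes given above, 8.06% higher and 8.62% lower, are for the highest score at 2-fold. They are no background for the counts at other settings. With transcripts of at least 100 bp the ratio of Jak1 was −3.38, since its IL-4 transcript of 84 bp dropped out. The ratio of Il4ra was at least 1 in 10 of 11 alternatives and that of Jak1 at most −1 in 6 of 11. For Jak2 the ratio ran from −2.32 to 2.22 over the same alternatives. Scaled by score times length outside Rn45s and the mitochondrial genome, Il4ra was 1.20, Jak1 −1.51, and Jak2 and Tyk2 both −0.09. Also without ribosomal RNA repeats, chosen after seeing the data, these ratios were 1.04, −1.67 and −0.24. The sign for Jak2 and Tyk2 thus depended on the scaling. The IL-4 share without a counterpart was 80.3% with 50% overlap and 40.6% at scores of at least 0.3. The share over all genes was not computed at these settings, so its 47.5% is no background for them. The ratio of covered length stayed between 3.20 and 3.60. No paired analysis was possible because each condition had 1 library, and for the same reason no library could be left out. Scores of 0.1 to 0.4, as in Jak2, Jak3 and Tyk2, differ by few rounding steps, which limits what their ratios show.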
